A study of Rattus norvegicus with 8 samples.

Results

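The genes described here are the 3 peroxisome proliferator-activated receptors (Pparg, Ppara and Ppard) and 7 genes for lipid carriage and storage: the apolipoproteins Apom, Apoe and Apoc1, the lipase Lpl, the uptake receptor Cd36, the droplet coat protein Plin2 and the binding protein Fabp4. They were measured in cells sorted for the surface tetraspanin CD9 from testes of Sprague-Dawley rats that carry a green fluorescent protein transgene specific to germ cells. RNA of 4 young samples (4 months) and 4 aged samples (21 months) was hybridised to single-colour Agilent rat arrays, and the labels name no treatment and no genotype other than the transgene, which both groups share. The labels do not say whether the 4 samples of an age are 4 animals, pools or repeated sorts, so the spread between them may be partly technical. The 10 genes were looked up by symbol among the 15154 named genes on the array, where they have 12 probes. They were chosen by name with the log2 signals of the young and aged arrays in view, so their differences between the ages are given as descriptions. Their calls in the fit over all genes are counted further below, but nothing is read from them.

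PPARs are nuclear receptors that are activated by fatty acids and their derivatives, pair with a retinoid X receptor and bind DNA at direct repeats of a hexamer close to AGGTCA. Their targets include genes for fatty acid uptake, transport, storage and oxidation, and Lpl, Cd36, Plin2 and Fabp4 are known targets in adipocytes, muscle, liver or macrophages. Lipids reach a cell as albumin-bound fatty acids or in lipoproteins, whose apolipoproteins fix which receptors and lipases act on them. In the testis, Sertoli and Leydig cells store lipid in droplets, and resident macrophages lie in the interstitium beside the blood vessels.

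Each value below is the log2 of the background-subtracted signal minus the 75th percentile of the same array, so that 0 is the brightness of a probe at that percentile. Levels of different genes are not set against each other, since probes differ in how well they bind. A gene was kept if, in young or in aged samples or in both, every array showed a signal well above background in a share of 0.5 or more of the spots of its probe. Of the 10 genes, 7 passed (Pparg, Ppard, Apom, Apoe, Apoc1, Cd36 and Plin2) and 3 did not (Ppara, Lpl and Fabp4), among 10236 named genes that passed in all. The 75th percentile lay between 326 and 524 intensity units over the arrays, 63.0% to 72.0% of probes were well above background, and no spot was saturated. All arrays lay on 1 slide scanned once, with the young samples in 1 row and the aged samples in the other, so row and age cannot be told apart. Young replicate 1 stood apart, with a mean correlation across genes of 0.966 with the other young arrays against 0.982 to 0.989 for the remaining arrays with their own group, and the difference of each measured gene is also given without it.

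Markers of several cell types were measured in the sorted material. Of 16 undifferentiated spermatogonia markers on the array 13 passed the filter, Zbtb16, Gfra1, Ret, Nanos2 and Lin28a among them on all 8 arrays, while Thy1, Lhx1 and Pax7 did not. All 17 spermatocyte markers and all 19 spermatid markers on the array passed. So did 14 of 16 macrophage markers, 13 of 15 peritubular and stromal markers, 8 of 13 endothelial markers, 8 of 10 Leydig markers, 4 of 8 adipocyte markers and 4 of 10 Sertoli markers. In such bulk samples, fewer cells of a type and less RNA per cell cannot be told apart. With age the spermatocyte list was higher in 17 of 17 measured members (7 called at an adjusted p under 0.05 in limma, summed log2 level 6.24 to 6.68 in young and 6.91 to 7.08 in aged). The macrophage list was lower in 14 of 14 members, none of them called (summed level 3.33 to 4.95 and 2.77 to 4.33), and the stromal list in 13 of 13, none called (2.21 to 4.54 and 1.46 to 2.66). The spermatid list was lower in 19 of 19, none called (8.65 to 9.97 and 8.19 to 9.21). Among these genes Adgre1, Cd14, Cd163, Col3a1 and Acrv1 passed the filter through the young arrays alone, which favours a lower aged mean. The part of these shifts in the values of the 10 genes was not tested.

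Pparg and Apom are the only 2 of the 10 genes whose young and aged arrays did not overlap, and their promoters are shown for that reason. The windows run from 250 bases before to 50 bases after an annotated start in RefSeq assembly GRCr8 and were found for 7 of the 10 genes, as 12 windows. The hexamer AGGTCA and its variant GGGTCA were searched on both strands, the variant after the sequences had been seen. Capitals mark GGGTCA.
Pparg, first start (chr4:150096808-150097107, plus strand): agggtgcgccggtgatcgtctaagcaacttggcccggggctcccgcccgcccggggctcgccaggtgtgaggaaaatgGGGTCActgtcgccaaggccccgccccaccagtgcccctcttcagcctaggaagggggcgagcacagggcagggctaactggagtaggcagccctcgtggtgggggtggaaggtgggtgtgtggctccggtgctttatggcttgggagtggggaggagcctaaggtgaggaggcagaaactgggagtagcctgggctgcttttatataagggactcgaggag
Pparg, second start (chr4:150154522-150154821, plus strand): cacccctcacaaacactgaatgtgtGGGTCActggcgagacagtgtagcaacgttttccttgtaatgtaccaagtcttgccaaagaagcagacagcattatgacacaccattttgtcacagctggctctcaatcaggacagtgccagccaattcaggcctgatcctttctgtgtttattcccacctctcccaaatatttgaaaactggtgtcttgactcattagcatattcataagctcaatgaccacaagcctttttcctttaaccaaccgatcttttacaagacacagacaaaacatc
Apom (chr20:3695368-3695667, plus strand): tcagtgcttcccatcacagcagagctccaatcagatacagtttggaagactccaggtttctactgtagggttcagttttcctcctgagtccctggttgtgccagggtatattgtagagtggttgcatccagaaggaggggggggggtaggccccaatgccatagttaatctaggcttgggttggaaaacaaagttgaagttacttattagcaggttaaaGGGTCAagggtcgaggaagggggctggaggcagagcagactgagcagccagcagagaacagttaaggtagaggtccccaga
GGGTCA lies at base 79 and base 26 of the Pparg windows and at base 220 of the Apom window, counted from the 5′ end. It occurs in 5 of the 12 windows (both of Pparg, that of Apom and 2 of the 3 of Apoe) and in 13.8% of all 33469 rat promoter windows of this length. AGGTCA occurs in 0 of the 12 windows and in 16.2% of all windows. A direct repeat of AGGTCA spaced by 1 base, with at most 3 mismatches, occurs in 3 of the 12 windows (Apom from base 220, 1 of Apoe and 1 of Plin2) and in 24.9% of all, so these letters are common in promoters. Such a match is a description of the sequence and not a binding site.

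Pparg, the receptor that drives adipocyte differentiation and lipid storage, was higher in aged cells. The young arrays had log2 levels of −0.64, −1.22, −1.04 and −0.999 for replicates 1 to 4, and the aged arrays 0.19, −0.01, 0.12 and −0.24. Every aged array lay above every young array, and the nearest values were young replicate 1 and aged replicate 4. The means were −0.97 ± 0.24 (SD, n = 4) and 0.02 ± 0.19 (SD, n = 4), a difference of 0.99 ± 0.15 (SE) or 1.99-fold. Pparg was well above background on all 8 arrays, with signals of 174 to 244 intensity units in young and 358 to 444 in aged samples before scaling. Without young replicate 1 the difference was 1.10.

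Ppard, the receptor present in most tissues, showed no separation by age. Its young arrays read −3.70, −4.21, −3.67 and −4.12 and its aged arrays −4.33, −4.31, −3.88 and −3.30 on the log2 scale. The aged arrays spanned both ends of the range, with the lowest and the highest of the 8 values. The difference in means was −0.03 ± 0.24 (SE), with 0.05 without young replicate 1 and 0.08 on a second probe of the gene. Ppara, the receptor of fatty acid oxidation in liver, was close to the detection limit: 2 of 4 young and 1 of 4 aged arrays were well above background. Its log2 levels were −5.55, −5.33, −5.48 and −5.56 in young and −5.20, −5.27, −5.88 and −5.12 in aged samples, so the groups overlapped and the aged arrays were the more spread. Of the 3 receptors, Pparg alone was separated by age in these arrays.

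Apom, a lipocalin of high-density lipoprotein that carries sphingosine 1-phosphate, was the second gene with separated groups. Its log2 levels were −1.78, −1.22, −1.75 and −1.57 on young arrays and −0.66, −0.26, −0.73 and −0.69 on aged arrays. Within each age replicate 2 was the highest array, and all 4 aged arrays lay above all 4 young arrays. The difference was 0.996 ± 0.163 (SE) or 1.99-fold, from −1.58 ± 0.26 (SD, n = 4) to −0.58 ± 0.22 (SD, n = 4), and it was 0.93 without young replicate 1.

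Apoe, the ligand through which lipoprotein remnants are taken up and a major secretory product of macrophages, varied more between samples of an age than between the ages. Young arrays had log2 levels of 2.90, 4.64, 4.12 and 3.96, and aged arrays 3.15, 1.99, 3.50 and 4.81. Aged replicates 2 and 4 held the lowest and the highest of the 8 values, and the groups overlapped across most of the range. The unscaled signals ran from 1428 to 14684 intensity units within the aged group alone. The difference in means was −0.54 ± 0.56 (SE), and it ran from −0.08 without aged replicate 2 to −1.02 without aged replicate 4, with −0.88 without young replicate 1. The SD within ages, 0.97, was larger than that of 98.6% of tested genes.

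Apoc1, a small exchangeable apolipoprotein that hinders lipoprotein uptake, was nearly level. Its young arrays read −0.60, −1.04, −1.20 and −1.07 and its aged arrays −1.37, −1.25, −1.08 and −1.29. Young replicate 1 was above all others, and the other 7 arrays lay within a narrow band in which the ages overlapped. The difference was −0.27 ± 0.15 (SE), and −0.15 without young replicate 1.

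Lpl, the enzyme that frees fatty acids from lipoproteins at the vessel wall, was not well above background on any of the 8 arrays, so no fold is given. Cd36, the receptor for fatty acids and oxidised lipoproteins on macrophages, adipocytes and capillary endothelium, had 1 low array in each age. Its log2 levels were −4.46, −2.34, −2.70 and −2.55 in young and −2.43, −5.04, −2.95 and −2.69 in aged samples. Young replicate 1 and aged replicate 2 were low, the other 6 arrays of both ages overlapped, and aged replicate 2 was not well above background. Its second probe did not pass the filter, with 1 of 4 young and 0 of 4 aged arrays well above background. The same 2 arrays were lowest on it, but aged replicate 1 was close, at −5.86 against −6.02 on young replicate 1. The difference was −0.27 ± 0.63 (SE) on the first probe and −0.52 on the second. Leaving out aged replicate 2 turned the direction, to 0.32, and leaving out young replicate 1 gave −0.75. The SD within ages was larger than that of 99.3% of tested genes.

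Plin2, which coats lipid droplets in most cell types, was the steadiest of the 7 measured genes. Its log2 levels were 0.57, 0.32, 0.30 and 0.38 in young and 0.38, 0.27, 0.22 and 0.22 in aged samples. The groups overlapped, and young replicate 1 was again the highest array. The difference was −0.12 ± 0.10 (SE), and −0.06 without young replicate 1. Its SD within ages was larger than that of only 4.15% of tested genes. Fabp4, the fatty acid binding protein of adipocytes, macrophages and endothelium, was well above background on 3 of 4 young and 1 of 4 aged arrays and did not pass the filter. Its log2 levels were −6.28, −3.54, −3.34 and −3.36 in young and −4.86, −7.13, −6.13 and −6.55 in aged samples. Young replicates 2, 3 and 4 were the highest 3 arrays, while young replicate 1 lay among the aged arrays, so the groups overlapped. The difference was −2.04, and −0.41 with normexp background correction (offset 50).

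**Figure D1:**
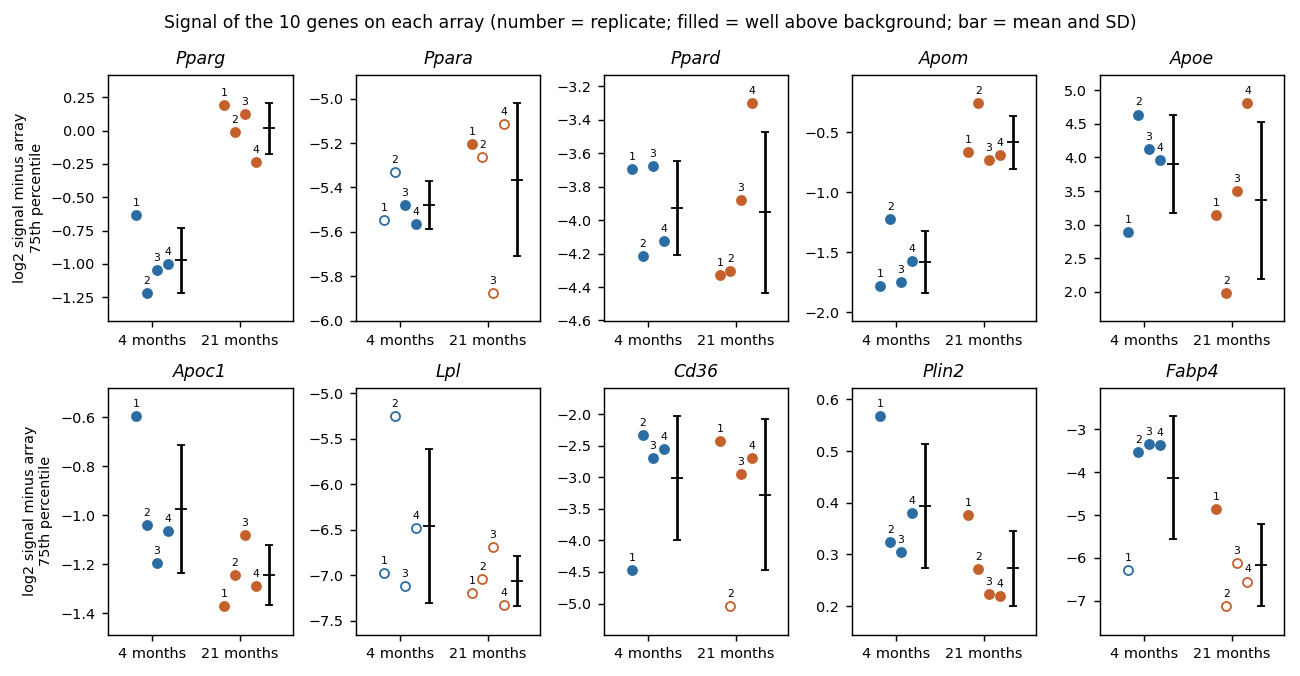
Log2 signal minus the array's 75th percentile for each of the 10 genes on the 4 young and 4 aged arrays, with the replicate number above each point, filled points well above background, and the mean and SD beside each group; each panel has its own axis. Pparg and Apom have aged arrays all above the young ones, Apoe and Cd36 have 1 or more arrays far from the rest of their age, and Lpl has no filled point.

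As a group, the 7 measured genes did not move together between the ages. In the limma fit over all genes 2 of the 7 were called as higher in aged cells, Pparg and Apom, and 0 as lower, where the share called among all tested genes was 0.655%, with 0.498% called as higher and 0.156% as lower. The same 2 had groups that did not overlap, which was so for 14.3% of all tested genes. Both calls were lost in 12 of 23 alternatives: with no scaling, with spike-in scaling (where Apoc1 alone was called, as lower), with no filter, with unnamed probes tested too, with the replicate block, and without any single array other than young replicate 1. Nothing is read from these counts, since the genes were chosen with this comparison in view. By their means 2 of the 7 were higher and 5 lower in aged cells, where 36.6% of all tested genes were lower. Cd36, among the 5, passed the filter through the young arrays alone, which favours a lower aged mean. The median difference of the 7 was −0.12 against 0.11 over all tested genes. The scaling moves all of these together: under spike-in scaling the median of all genes was −0.35 and Pparg and Apom differed by 0.54 each, still above 0, while Plin2 and Apoc1 differed by −0.58 and −0.73.

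**Figure D2:**
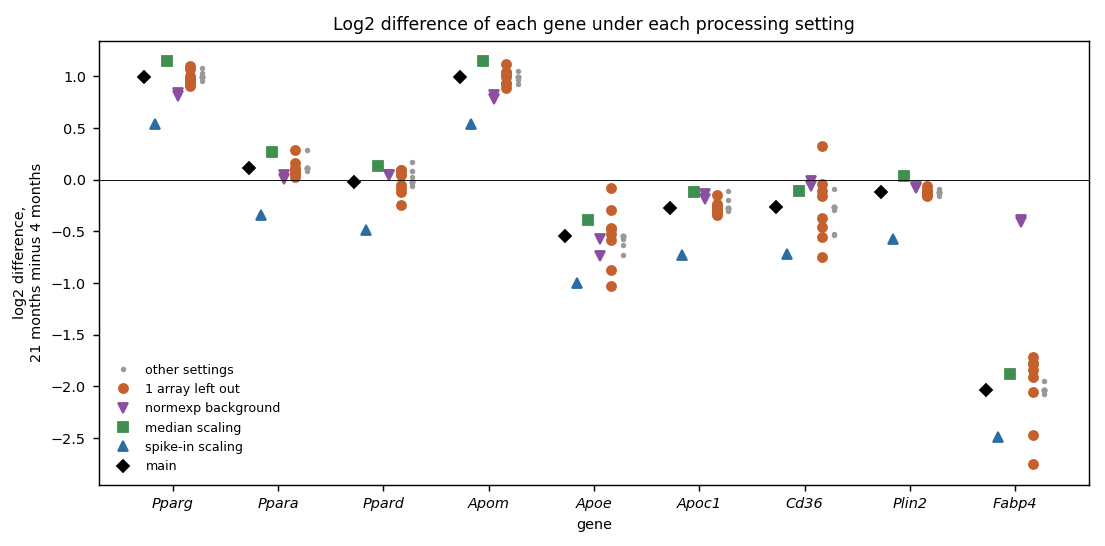
Log2 difference (aged minus young) of 9 of the 10 genes under the main processing and every alternative, by kind of setting; Lpl is left out because no array measured it. Pparg and Apom stay above 0 at every setting drawn, Apoe, Apoc1 and Fabp4 stay below 0, and Ppara, Ppard, Cd36 and Plin2 have points on both sides.

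The variation within ages was then followed: each value had its age group mean subtracted, and genes were compared over the 8 arrays. The genes were chosen with the signals of these arrays in view, so the p-values below may not be independent of that choice. Apoe went with the macrophage markers. Its Pearson r with their mean was 0.98 and Spearman's rho 0.93 (exact permutation within ages, two-sided, p = 0.00347 and 0.00694), and r was 0.97 without the 2 arrays farthest from the median. Adjusted over the 63 pairs of a gene and a marker list, the p-values were 0.219 and 0.365, and no pair passed a threshold of 0.05. With 4 arrays per age the possible orders are too few for a lone pair among the 63 to pass, so this outcome decides nothing. The 2 genes most like Apoe among all tested were Pf4, a platelet and macrophage chemokine (r = 0.99), and C1qb, a complement subunit made by macrophages (r = 0.99), and C1qb is itself in the macrophage list. Where Apoe was lowest, on aged replicate 2, the macrophage mean was −1.33 after centring each marker, and where Apoe was highest, on aged replicate 4, it was 0.48. The r of Apoe was also high with the adipocyte mean (0.90, and 0.75 without 2 arrays) and the endothelial mean (0.80, and 0.51). With the spermatid mean it was 0.77 (0.18 without 2 arrays), so a high r was not particular to the macrophage list. The arrays share the amplification and the scaling, and whether macrophage RNA accounts for the spread of Apoe was not tested.

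Cd36 also followed the macrophage mean (r = 0.89, rho = 0.60; exact permutation p = 0.026 and 0.168, adjusted 0.241 and 0.534), but r was 0.25 without the 2 arrays farthest from the median, so the relation rests on those arrays. Its r was as high with the Leydig mean (0.90), the stromal mean (0.89), the adipocyte mean (0.85), the spermatid mean (0.84) and the endothelial mean (0.80), with rho of 0.24 to 0.45 and exact permutation p for r of 0.0312 to 0.0573 (adjusted 0.241 each) and for rho of 0.205 to 0.583 (adjusted 0.534 to 0.777). Without 2 arrays these r were all below 0, from −0.77 to −0.21, so each rests on those arrays. Selenop, a selenium carrier, was the gene most like Cd36 (r = 0.998, and 0.94 without 2 arrays), followed by Robo2, an axon guidance receptor (r = 0.99, and 0.74). Among the 21 pairs of the 7 genes, Apoe and Cd36 had r of 0.82 and rho of 0.52 (exact permutation p = 0.0399 and 0.266, adjusted 0.419 and 0.698). Without the 2 arrays farthest from the median in Apoe, r was 0.80. Young replicate 1, the lowest young array in both genes, was not among those left out. The 0.80 therefore does not show that the pair holds without the low arrays of Cd36.

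Pparg and Plin2 had the highest r of the 21 pairs, 0.83, with rho of 0.81 (exact permutation p = 0.0312 and 0.026, adjusted 0.419 and 0.273), and r was 0.69 without 2 arrays. Both went with the spermatocyte mean: r was 0.79 for Pparg (rho = 0.79; exact permutation p = 0.0469 and 0.0451, adjusted 0.241 and 0.365) and 0.88 for Plin2 (rho = 0.74; exact permutation p = 0.0278 and 0.0729, adjusted 0.241 and 0.378). Without 2 arrays these fell to 0.25 and 0.13, so they rest on those arrays. Of the negative relations, Plin2 against the endothelial mean had r of −0.87 (rho = −0.81; exact permutation p = 0.0521 and 0.0365, adjusted 0.241 and 0.365) and −0.93 without 2 arrays, and Pparg against the macrophage mean had r of −0.70 (rho = −0.71; exact permutation p = 0.0799 and 0.0747, adjusted 0.265 and 0.378) and −0.89 without 2 arrays. Between the ages Pparg and the spermatocyte mean were both higher, the latter from −0.58 to −0.14 in young to 0.25 to 0.63 in aged samples, while Plin2 was not. The genes most like Pparg were Rbbp4, a histone-binding chromatin protein, and Lsm1, an mRNA decay factor (r = 0.99 each), and those most like Plin2 were Mxi1, a repressor of the Myc network, and Oaz2, an inhibitor of polyamine synthesis (r = 0.99 each). The part of the spermatocyte share in the level of Pparg was not tested.

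**Figure D3:**
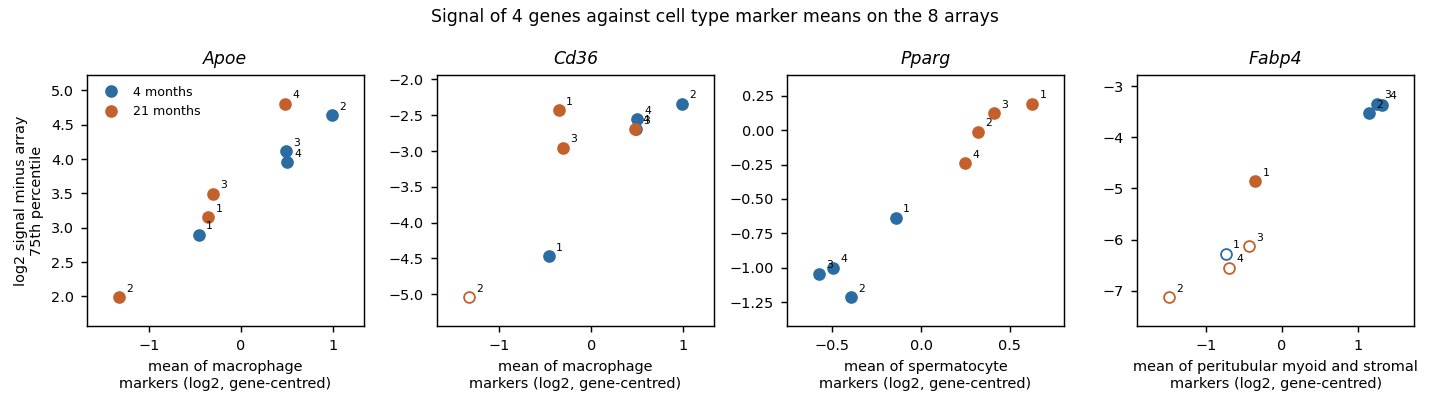
Log2 signal of Apoe, Cd36, Pparg and Fabp4 against the mean of a marker list on each of the 8 arrays (each marker centred over arrays; numbers are replicates; open points not well above background). Apoe climbs with the macrophage mean in both ages, Cd36 does so through young replicate 1 and aged replicate 2, aged arrays lie at the high end of both axes for Pparg, and for Fabp4 the 3 high young arrays are those with the highest stromal means. The same 3 arrays also have the highest macrophage, endothelial, adipocyte and spermatid means, so the Fabp4 panel is not particular to the stromal list.

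Apom followed none of the macrophage, stromal or endothelial means (r between −0.04 and 0.03). Its highest r was with the Sertoli mean, 0.74 (rho = 0.93; exact permutation p = 0.0226 and 0.0278, adjusted 0.241 and 0.365), and 0.36 without 2 arrays. That mean rests on 4 genes, Clu, Dhh, Inha and Rhox5, while Wt1, Gata4, Amh, Fshr and Cldn11 did not pass the filter. Of these 4 genes only Rhox5, a homeobox gene of Sertoli cells, was called, as higher in aged cells (0.82 ± 0.13 (SE), adjusted p = 0.0465 in limma). That call was not followed over the alternatives. Inha differed by 0.59 ± 0.22 (SE), Clu by 0.23 ± 0.40 (SE) and Dhh, which passed the filter through the young arrays alone, by −0.86 ± 0.53 (SE). The genes most like Apom were Ikbke, a kinase of innate immune signalling (r = 0.97, and 0.91 without 2 arrays), and Hacd1, an enzyme of very long chain fatty acid synthesis (r = 0.97, and 0.67). For Ppard they were Pigv and Crbn (r = 0.97 and 0.96), a mannosyltransferase and a ubiquitin ligase receptor, and for Apoc1 Clock and Lynx1 (r = 0.97 each), a circadian transcription factor and a modulator of nicotinic receptors. These genes were picked as the most similar of all those tested, so their r has no p.

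**Figure D4:**
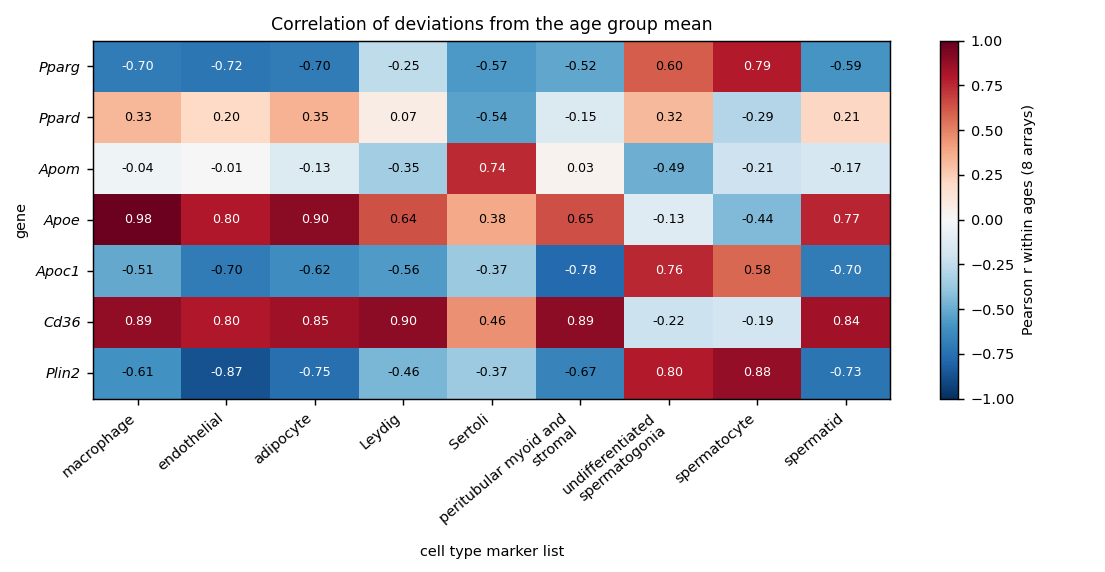
Pearson r over the 8 arrays, after subtracting age group means, between each of the 7 measured genes (rows) and the mean of each cell type marker list (columns). Apoe and Cd36 are positive in the macrophage, endothelial and adipocyte columns where Pparg and Plin2 are negative, and Apom lies between −0.49 and 0.03 except in the Sertoli column.

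Apoc1 and Apoe are adjacent genes, in the order Apoc2, Apoc4, Apoc1, Apoe in RefSeq. Apoc2 (the cofactor of lipoprotein lipase) and Apoc4 are named here for that position and stand outside the naming rule. Within ages Apoc1 went with Apoc2 (r = 0.92, rho = 0.71; exact permutation p = 0.0365 and 0.0799, adjusted over 6 pairs 0.142 and 0.12) and with Apoc4 (r = 0.86, rho = 0.83; exact permutation p = 0.0538 and 0.0434, adjusted 0.142 and 0.12), but r was 0.34 and 0.35 without 2 arrays. Young replicate 1 was high in all 3, with Apoc2 at −3.40 against −4.68 to −4.37 on the other young arrays. Apoe had negative r with each of the 3, from −0.52 to −0.41. Apoc2 differed between the ages by 0.23 ± 0.26 (SE) and Apoc4 by 0.07 ± 0.15 (SE), with adjusted p = 0.554 and 0.752 in limma, and under spike-in scaling by −0.22 and −0.38.

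The other genes of the pathway were taken from 9 lists of 243 genes, none of them among the 10. Of these, 211 were on the array and 152 passed the filter. In limma with Benjamini-Hochberg adjustment over all tested genes 1 of the 152 was called, 0.658% against the 0.655% of all tested genes. It was Acadvl, the mitochondrial dehydrogenase that opens the oxidation of very long chain fatty acids, which was higher in aged cells. Its log2 levels were −0.11, −0.09, −0.14 and −0.22 in young and 0.32, 0.51, 0.44 and 0.43 in aged samples, without overlap, and the difference was 0.56 ± 0.10 (SE; adjusted p = 0.0465). The call was lost in 12 of 23 alternatives (adjusted p from 0.00166 to 0.675 over the 23), among them the loss of any array other than young replicate 1 (0.0693 to 0.169). By their means 76 of the 152 were higher and 76 lower in aged cells, with a median of 0.00 against 0.11 for all tested genes.

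Of the 9 lists, 8 had medians between −0.03 and 0.23. The 13 measured adipocyte genes regulated by Pparg lay lower: 11 were lower and 2 higher by their means, with a median of −0.40, although 0 were called in limma and 4 had an unadjusted p under 0.05. That median was −0.65 without young replicate 1, −0.27 without young replicate 2, −0.24 and −0.22 with normexp, −0.21 with no filter and −0.85 with spike-in scaling. Adipoq, the adipocyte hormone adiponectin, had log2 levels of −3.14, −2.04, −1.54 and −1.36 in young and −3.48, −3.51, −3.26 and −3.02 in aged samples (−1.29 ± 0.35 (SE), adjusted p = 0.0703). Aqp7, a glycerol channel that spermatids express as well, differed by −1.27 ± 0.45 (SE; adjusted p = 0.107). On the same arrays the spermatid markers were lower in 19 of 19 measured members, 0 of them called (summed level 8.65 to 9.97 in young and 8.19 to 9.21 in aged), and the adipocyte markers in 4 of 4, 0 called (1.57 to 2.98 and 0.42 to 2.38), with Lep, Cidec, Pck1 and Retn not passing the filter. The 4 measured adipocyte markers (Adipoq, Aqp7, Cfd and Lipe) are themselves among the 13 genes of the list, so they are no separate observation. The part of spermatid or adipocyte RNA in the shift of the list was not tested.

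Among receptor partners and coregulators 8 of 13 measured genes were higher and 5 lower, with a median of 0.11 (0.23 without young replicate 1, 0.04 without young replicate 4) and 0 called. Ncoa4, a nuclear receptor coactivator and ferritin receptor, had no overlap between the ages (−0.83 ± 0.20 (SE), adjusted p = 0.0566), which did not pass the threshold. Ppargc1b, a coactivator of oxidative metabolism, passed the filter through the young arrays, and 2 of 4 aged arrays were above background, so its size is not fixed: it was lower in aged samples by its means, by −2.45 to −0.69 over the alternatives. The fatty acid oxidation list, which holds Acadvl, had 11 of 27 higher and 16 lower, with a median of −0.03.

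The other apolipoproteins were higher by their means in 6 of 7, with a median of 0.23 and 0 called. That median was 0.08 without aged replicate 3, 0.09 without young replicate 2, 0.09 and 0.07 with normexp and −0.23 with spike-in scaling. The smallest p belonged to Apool (0.53 ± 0.12 (SE), adjusted p = 0.0561) and Apoo (0.40 ± 0.14 (SE), adjusted p = 0.113), which are mitochondrial cristae proteins rather than plasma carriers. The 8 measured genes around sphingosine 1-phosphate, the lipid that Apom carries, were higher in 5 and lower in 3, with a median of 0.15 and 0 called. The median turned to −0.14 with no filter on dim probes and to −0.31 with spike-in scaling. The smallest p among them belonged to Plpp1, a lipid phosphate phosphatase (0.48 ± 0.11 (SE), adjusted p = 0.0561), and Sphk2, a sphingosine kinase (0.38 ± 0.10 (SE), adjusted p = 0.0693). Both had aged arrays all above the young arrays.

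The genes of uptake, transport and storage were split in direction. Lipoprotein receptors and lipases were higher in 8 and lower in 6 (median 0.02), with Pnlip, the pancreatic lipase, above background on 1 of 4 aged arrays (its difference ran from −0.97 to −0.01 over the alternatives) and Lipa, the lysosomal acid lipase, at −0.48 ± 0.17 (SE; adjusted p = 0.104). Fatty acid transport, binding and activation had 14 higher and 13 lower (median 0.02), with Slc27a5, a fatty acid and bile acid CoA ligase, at −0.57 ± 0.12 (SE; adjusted p = 0.0556) and Acss2, the cytosolic acetyl-CoA synthetase, at 0.42 ± 0.10 (SE; adjusted p = 0.0561). Droplet coat and triglyceride genes had 12 higher and 10 lower (median 0.05), with Hsd17b11, a droplet-bound dehydrogenase, at 0.41 ± 0.10 (SE; adjusted p = 0.0568) and Agpat2, an acyltransferase of triglyceride synthesis, at −0.96 ± 0.25 (SE; adjusted p = 0.0687). Cholesterol efflux and LXR genes had 10 higher and 11 lower (median −0.03, and 0.09 without young replicate 1), with the transporter Abca7 at 0.45 ± 0.13 (SE; adjusted p = 0.0778) and the receptor Nr1h2 at 0.40 ± 0.13 (SE; adjusted p = 0.0958). None of these genes was called in limma. Without young replicate 1, 48 of the 152 were called, 18 higher and 30 lower, where 3776 of all tested genes were.

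**Figure D5:**
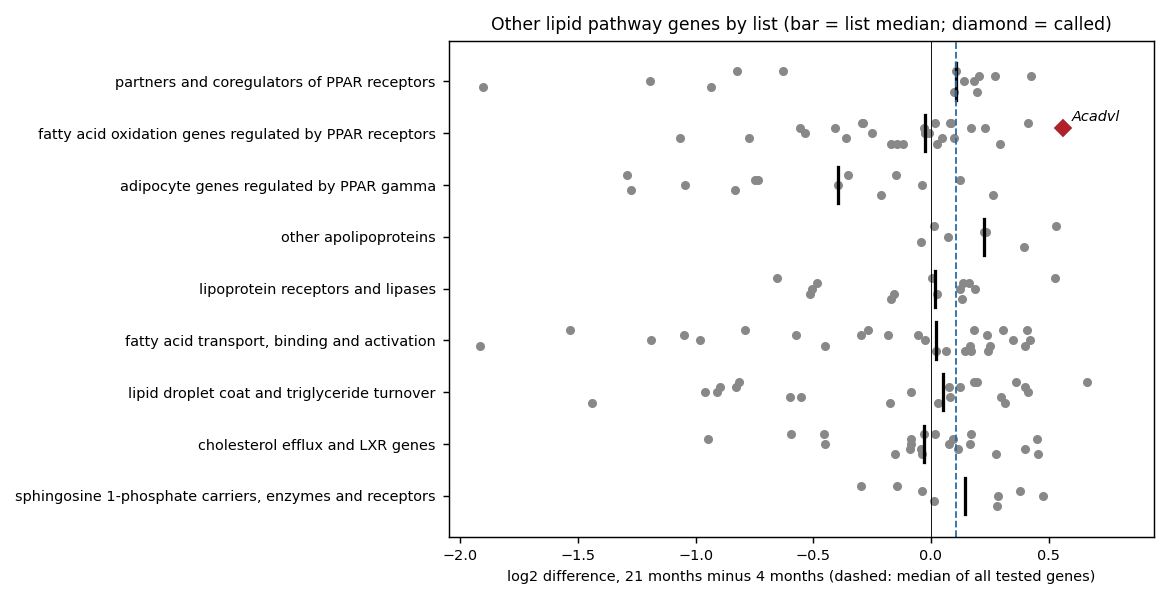
Log2 difference, aged minus young, of the 152 measured pathway genes by list, with the list median as a bar, the called gene Acadvl as a diamond and the median of all tested genes (0.11) as a dashed line. The adipocyte list has its median furthest to the left, at −0.40, and the other apolipoproteins furthest to the right, at 0.23 (0.08 without aged replicate 3).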

How the data were processed

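Cy3-labelled cRNA from 18 ng of total RNA per sample was hybridised, per the labels' protocols. The scanner output names Agilent Feature Extraction 10.7.3.1 per the file headers, while the submitters' processing notes give version 12.5. The deposited processed signal is an intensity from which the software had subtracted background, with no scaling between arrays; deposited median spot and local background intensities served for normexp (offset 50), since no mean spot signal was used here. Other deposited columns flag spots as 0 or 1 for background, saturation and outliers. The authors' deposited series table holds log2 values of 30505 probes, each centred to a median of 0. Over 18228 probes it matched percentile-scaled, median-centred scanner values (slopes 0.9996 to 1, residual SD at most 0.00222), which settles scale, centring and direction. In young replicates 1 to 4 the median of the column was 0.09, −0.07, −0.14 and −0.06, and in aged replicates 1 to 4 it was −0.02, 0.05, 0.07 and −0.003.

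Control and outlier spots were left out, log2 of the processed signal was taken, each array's 75th percentile over non-control probes was subtracted and spots of a probe were averaged. Of 30367 probes, 17998 matched 15154 genes by accession in the RefSeq table of assembly GRCr8, used for names and promoter sequences. The brightest passing probe stood for a gene, and a group needed at least 2 values. R 4.3.3 was used with the packages jsonlite 2.0.0, data.table (version 1.17.8) and limma 3.58.1. Ages were compared by lmFit followed by eBayes, two-sided, on 9.15 moderated degrees of freedom. Calls needed an adjusted p (Benjamini-Hochberg) under 0.05 over the 10236 tested genes, of which 67 were called (51 higher, 16 lower) and 3217 had an unadjusted p under 0.05. Figures used Python 3.11.15, pandas 2.3.3, numpy 2.4.6 and matplotlib 3.10.9. The fit was tested on simulated data with independent noise for each gene, which says nothing about effects shared by the genes of an array.

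The 10 genes and the lists were chosen with earlier results of these data known. The text names all 10, of each pathway list up to 4 called genes or otherwise the 2 with the smallest p, and per measured gene the 2 others with the highest r within ages. The alternatives covered scaling, background correction, the authors' table, the filter, probes per gene, outlier spots, array weights, the variance model, unnamed probes, the threshold, a replicate block and each array left out.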

Additional observations from a re-analysis of the deposited data

Results flagged for a closer look

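In groups of 4 arrays, an array was singled out when its gap to the next value took more than Dixon's 95% limit of the group's range, which chance alone does in about 1 in 20 groups. This happened in 5 of the 54 groups looked at. Cd36 was lowest on young replicate 1, at a log2 level of −4.46 with the next young array at −2.70, and Fabp4 was lowest there too, at −6.28 with the next at −3.54. Hsd17b11 was highest on young replicate 1, at 2.25 with the next at 2.04. Apom was highest in the aged group on replicate 2, at −0.26 with the next at −0.66, and Agpat2 was lowest on that array, at −2.49 with the next at −2.06. Young replicate 1 thus carries 3 of the 5 and aged replicate 2 the other 2.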

How the results depend on the processing

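The differences of Pparg and Apom kept their sign in all 23 alternatives (0.54 to 1.15 each), and so did those of Apoe (−1.02 to −0.08), Apoc1 (−0.73 to −0.11) and Fabp4 (−2.75 to −0.39). The counts of calls did not hold. Over all tested genes the count was 67 (51 higher, 16 lower) and became 1330 with median scaling (1067 higher, 263 lower), 1067 with spike-in scaling over 4 probes (6 higher, 1061 lower), 630 and 253 with normexp and percentile or quantile scaling (363 and 219 higher), 4529 with array weights, 270 with a trended robust variance and 1674 at an adjusted p under 0.1. Among the 152 pathway genes the count of 1 became 17 with median scaling (12 higher), 17 with spike-in scaling (0 higher), 12 and 4 with the normexp settings, 64 with array weights, 5 with the trended variance and 21 at 0.1. Both counts were 0 in limma with no scaling, no filter, unnamed probes tested too, and the replicate block, where 1389, 3339, 4929 and 3231 features and 17, 56, 48 and 45 pathway genes had an unadjusted p under 0.05. Leaving out 1 array gave 0 to 3776 calls over all genes and 0 to 48 in the pathway lists. The highest of each came without young replicate 1; without any other array the counts were at most 1 and 0. Whether the replicate numbers pair the samples was not settled. Same-numbered arrays correlated by −0.264, −0.115, 0.44 and 0.352 across genes, in departures from mean levels and not in the signals themselves. No young array had the aged array of its own number as best partner. Under spike-in scaling, which lowered the median of all genes to −0.35, Ppara (−0.34), Apoc2 (−0.22) and Apoc4 (−0.38) turned to below 0, and so did Apoo (−0.0590), Acss2 (−0.0347), Hsd17b11 (−0.0446), Abca7 (−0.00426), Nr1h2 (−0.0534) and Sphk2 (−0.0764). The cause of these changes was not tested. Signal over background limits Ppara, Lpl, Fabp4 and, on aged replicate 2, Cd36.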
